A study of Mus musculus with 12 samples.

Results

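Interferon beta and the interferon receptors were followed as 5 genes of the 23997 listed per library. They were taken by name: Ifnb1, which encodes the ligand interferon beta, Ifnar1 and Ifnar2, the chains of the type I interferon receptor, and Ifngr1 and Ifngr2, the chains of the type II receptor. RNA-seq was performed on bone marrow-derived macrophages (BMDMs) in 12 libraries, 3 in each of 4 groups: untreated WT, untreated Pim1-/-, LPS-treated WT and LPS-treated Pim1-/-. The donors in all the groups were males of strain C57BL/6 aged 8 to 10 weeks, whose marrow cells were grown with recombinant human macrophage colony-stimulating factor (M-CSF) at 10 ng/ml for 7 d. LPS, a bacterial cell wall lipid that activates the receptor TLR4, was given at 100 ng/ml for 4 h. The Pim1-/- mice carry a CRISPR-Cas9 deletion of exons I to V of Pim1, a serine/threonine kinase gene, in every cell, so the deletion was present during macrophage growth as well as during treatment. The labels do not tell whether the 3 libraries of a group came from separate mice or cultures, so the p-values measure only the spread between these libraries, which may be technical.

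Interferon beta is secreted by macrophages soon after TLR4 signals through the adaptor TRIF and the transcription factor IRF3. It binds a receptor made of an IFNAR1 and an IFNAR2 chain on the same and on neighbouring cells, which passes the signal through the kinases TYK2 and JAK1 and raises the interferon-stimulated genes. Interferon gamma, made mainly by T and NK cells, uses another receptor, of IFNGR1 and IFNGR2 chains, with JAK1 and JAK2. For both receptors, a cell responds only where both chains are present.

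Values are FPKM, fragments counted per length of transcript and per sequencing depth, so that levels of different genes can be set side by side per length. Pim1 itself had a mean of 22.93 FPKM in untreated WT, 8.735 in untreated Pim1-/-, 645.4 in LPS-treated WT and 218.9 in LPS-treated Pim1-/- cells. Every Pim1-/- library was below every WT library of the same treatment, and the Pim1-/- means were 38.1% and 33.9% of the WT means, untreated and after LPS. The values do not show which exons the remaining Pim1 RNA covers, and Pim1 overlaps the antisense gene Gm26885. Of 10 macrophage markers, 9 are file names and all 9 were measured at 1 FPKM or more in at least 3 libraries. Their summed level was 27700 to 29700 FPKM in untreated WT and 14300 to 15200 in untreated Pim1-/- cells, and 30300 to 30800 and 15600 to 17500 after LPS, with 9 of 9 lower in Pim1-/- cells after LPS and 7 of 9 lower untreated at a Benjamini-Hochberg FDR under 0.05 in limma, where 41.7% and 42% of all genes were lower. Most of that sum was Lyz2, lysozyme, with means of 26300 FPKM in untreated WT and 13300 in untreated Pim1-/- cells, whereas Cd68 had 1161 and 956.0 and Cd14 167.5 and 160.3. With libraries scaled to Actb, 5 of 9 were higher and 3 lower after LPS, but 7 of 9 stayed below the median of all genes, with a median of -0.922 relative to it. Plasmacytoid dendritic cells are another source of type I interferon. All 6 of their markers stayed under 1 FPKM in every library, with Ly6d and Klk1 at 0 throughout. Stromal markers summed to 2.84 to 3.33 FPKM in untreated WT and 0.869 to 1.10 in untreated Pim1-/- cells, and to 11.3 to 11.5 and 2.98 to 3.75 after LPS. Most of the rise with LPS was Pdgfrb, with means of 0.1635, 0.07181, 7.097 and 2.158 FPKM in that order. T and NK cell markers summed to 4.93 to 5.45, 0.721 to 0.939, 2.46 to 3.10 and 0.542 to 1.09 FPKM in the same order. Cd3e, Cd3g, Cd8a and Ncr1 were at 0. In WT cells nearly all of the sum was Cd4, with means of 4.959 FPKM untreated and 2.57 after LPS. In Pim1-/- cells Cd4 was lower, at 0.4319 and 0.3097. Klrb1c was higher there, at 0.2425 and 0.4432, against 0.07698 and 0.1222 in WT. Neutrophil markers summed to 1.57 to 2.05, 3.28 to 4.26, 6.04 to 8.20 and 3.68 to 6.18 FPKM, and B cell and conventional dendritic cell markers to under 4 FPKM in every library. The part of these markers in the results that follow was not tested, and in these bulk samples fewer cells of a type and less RNA per cell cannot be told apart.

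Ifnb1 lies on chromosome 4 (GRCm38, chr4:88522025-88522774, minus strand, GENCODE ENSMUSG00000048806.4) as 1 exon of 750 nt. Ifnar2 (chr16:91372783-91405589), Ifnar1 (chr16:91485238-91507441) and Ifngr2 (chr16:91547072-91565623) follow each other on the plus strand of chromosome 16, within 192841 bases, and Ifngr1 is on chromosome 10 (chr10:19591949-19610229, plus strand). The longest coding transcripts have 3909 nt in 11 exons for Ifnar1, 3047 nt in 9 exons for Ifnar2, 2112 nt in 7 exons for Ifngr1 and 3708 nt in 7 exons for Ifngr2. Ifnar2 overlaps Gm21970, an annotated gene on the same strand that also covers Il10rb, and reads of Ifnar2 could be split with it. Ifnar2 is known to have membrane-bound and soluble forms, which these values per gene do not separate.

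Promoter sequence is shown because the ligand gene and the receptor genes differ in what lies before their start. The 250 bases before the RefSeq start (GRCm38.p6) were searched on both strands for 6 motifs in all 5 genes and in 32544 RefSeq promoters. In the Ifnb1 line, which covers 160 to 60 bases before the start at chr4:88522854-88522954 on the minus strand, capitals mark AANNGAAA (the core bound by IRF factors), the NF-kB form, which is GGG and TTCC with any 3 bases between them, and TATAAA. In the receptor lines, which cover the last 120 bases before the start on the plus strand (Ifnar1 chr16:91485095-91485214, Ifnar2 chr16:91372663-91372782, Ifngr1 chr10:19591829-19591948, Ifngr2 chr16:91546939-91547058), capitals mark GGGCGG, the GC box, read on either strand.
Ifnb1: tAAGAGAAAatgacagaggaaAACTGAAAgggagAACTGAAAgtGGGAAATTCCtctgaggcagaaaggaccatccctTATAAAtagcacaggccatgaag
Ifnar1: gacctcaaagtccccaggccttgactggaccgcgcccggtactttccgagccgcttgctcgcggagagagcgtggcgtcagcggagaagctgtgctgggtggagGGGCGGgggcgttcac
Ifnar2: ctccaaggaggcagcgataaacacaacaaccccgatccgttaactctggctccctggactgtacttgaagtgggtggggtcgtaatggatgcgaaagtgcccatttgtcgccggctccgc
Ifngr1: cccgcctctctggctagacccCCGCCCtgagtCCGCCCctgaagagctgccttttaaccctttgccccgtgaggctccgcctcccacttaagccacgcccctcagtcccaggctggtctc
Ifngr2: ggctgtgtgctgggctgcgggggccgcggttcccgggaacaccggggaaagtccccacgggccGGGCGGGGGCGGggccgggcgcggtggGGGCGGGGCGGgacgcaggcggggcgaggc

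AANNGAAA was found at 3 places before Ifnb1, the first base 159, 139 and 126 bases before the start, and in none of the 4 receptor windows. It was present in 21.3% of all promoters, and 0.851% held at least 3 matches. The NF-kB form was found once before Ifnb1 and once before Ifngr2, outside the capitals shown, and in 4.65% of all promoters. TATAAA was found at 210 and 82 bases before Ifnb1 and in no receptor window, against 12.3% of all promoters. GGGCGG had 2 matches each before Ifnar1 and Ifngr1, 4 before Ifngr2, and none before Ifnar2 or Ifnb1, against 33.0% of promoters with at least 1. TTCNNNGAA, the form bound by STAT dimers, was found once, before Ifnar2, against 7.04% of promoters, and TGANTCA, the AP-1 form, in none of the 5 windows, against 6.73%. The G and C content of the 250 bases was 39.6% for Ifnb1, 65.6% for Ifnar1, 54.0% for Ifnar2, 59.2% for Ifngr1 and 74.0% for Ifngr2, with a median of 52.4% over all promoters. Letters in a window are a description and do not show a bound factor.

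The ligand RNA was seen only with LPS and was higher in Pim1-/- cells. Without LPS, Ifnb1 read 0 in each of the 6 libraries. In LPS-treated WT cells it measured 9.52, 7.80 and 8.17 FPKM (mean 8.50 ± 0.906, SD, n = 3). In LPS-treated Pim1-/- cells it measured 15.1, 17.0 and 14.5 FPKM (15.53 ± 1.27, SD, n = 3). All 3 Pim1-/- libraries were above all 3 WT libraries, and the ratio of the means was 1.83. On the log2(FPKM + 1) scale, which understates the change of low genes, the difference was 0.80 (SE 0.069, 95% confidence interval 0.65 to 0.95, limma, adjusted p = 3.86e-08), at percentile 94.3 of all 10581 genes tested. It did not reach 2-fold on that scale.

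The deposited values are not counts, so the number of Ifnb1 fragments was estimated from the step between low values of genes with 1 transcript. These were whole multiples of 1 fragment, within 0.05, for 64.6% to 74.9% of values per library. The step of each library was chosen for a high share of such multiples, and for a step fixed beforehand chance gives 10%. By that estimate, Ifnb1 rested on 123, 96 and 94 fragments in LPS-treated WT libraries and 268, 237 and 228 in LPS-treated Pim1-/- libraries. Counting error alone then gives a coefficient of variation of 9.01% to 10.3% in WT and 6.11% to 6.62% in Pim1-/- cells, close to the observed 10.7% and 8.16% between libraries. In untreated libraries 1 fragment would have been 0.0395 to 0.0481 FPKM, and the level that a count of 0 allows, 3 fragments, 0.119 to 0.144 FPKM. No fold is given against untreated cells, because Ifnb1 was listed at 0 there. The receptor genes rested on at least 1739 estimated fragments in every library.

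**Figure D1:**
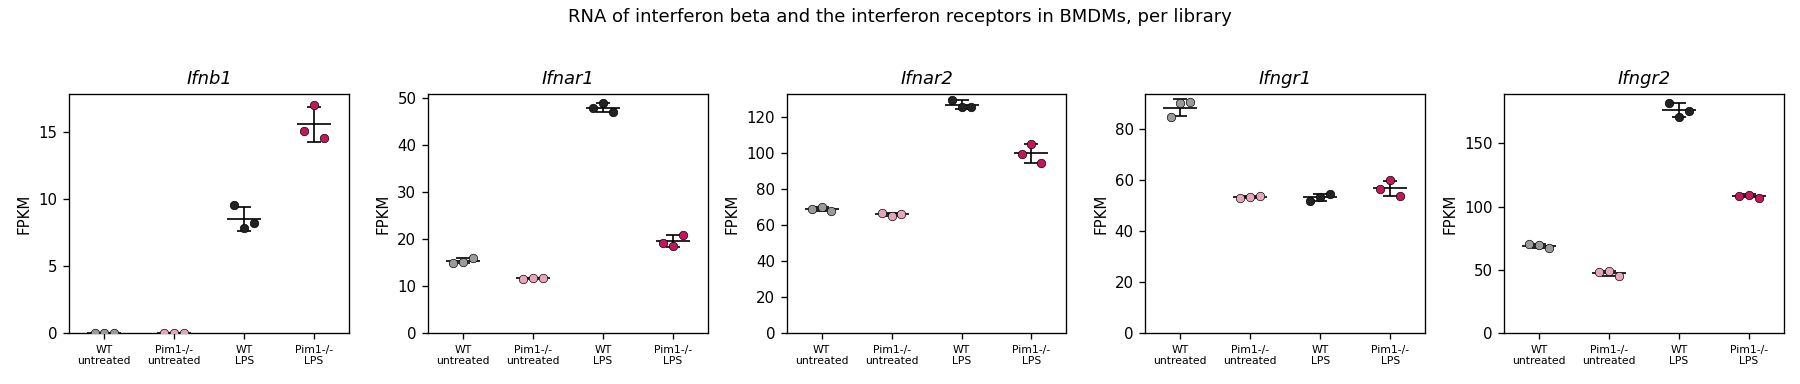
FPKM of the 5 genes in each of the 12 libraries (points), with mean and SD of each group of 3 (bars), untreated and LPS-treated, WT and Pim1-/-. Ifnb1 is at 0 in untreated cells and highest in LPS-treated Pim1-/- cells, whereas Ifnar1, Ifnar2 and Ifngr2 are highest in LPS-treated WT cells and Ifngr1 in untreated WT cells.

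The type I receptor chains were lower in Pim1-/- than in WT cells after LPS, Ifnar1 more than Ifnar2. Ifnar1, the signalling chain that binds TYK2, measured 14.92, 15.15 and 15.97 FPKM in untreated WT cells and 11.4, 11.8 and 11.6 in untreated Pim1-/- cells. After LPS it measured 47.9, 49.0 and 47.0 FPKM in WT and 19.2, 18.5 and 20.9 in Pim1-/- cells. No Pim1-/- library overlapped a WT library of the same treatment, and each LPS library was above the untreated libraries of its genotype. The mean rose 3.13-fold with LPS in WT cells (log2 difference 1.58, adjusted p = 2.17e-14) and 1.68-fold in Pim1-/- cells (0.70, adjusted p = 1.18e-09). The WT mean was 1.32-fold higher untreated (-0.37 for Pim1-/- minus WT, adjusted p = 4.13e-06) and 2.46-fold higher after LPS (-1.26, SE 0.048, 95% confidence interval -1.36 to -1.15, adjusted p = 3.25e-12). That last difference was at percentile 2.82 of all genes tested. The response to LPS was smaller in Pim1-/- cells by 0.88 on the log2 scale, an interaction of -0.88 (SE 0.068, adjusted p = 2.96e-08).

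Ifnar2, the chain with the higher affinity for interferon beta and the partner of JAK1, measured 68.8, 69.9 and 68.0 FPKM in untreated WT cells and 66.5, 64.9 and 66.2 in untreated Pim1-/- cells. After LPS it measured 129.6, 125.6 and 125.6 FPKM in WT and 99.6, 105.1 and 94.4 in Pim1-/- cells. The untreated groups did not overlap but were close, with a log2 difference of -0.06 (95% confidence interval -0.15 to 0.02) that did not pass the test (adjusted p = 0.170). After LPS all Pim1-/- libraries were below all WT libraries, by 1.27-fold (-0.35, SE 0.041, adjusted p = 1.64e-06), but with quantile normalization the difference was -0.07 and did not pass (adjusted p = 0.101). The mean rose 1.84-fold with LPS in WT (0.87, adjusted p = 7.17e-12) and 1.51-fold in Pim1-/- cells (0.59, adjusted p = 1.56e-09), and the difference of these responses was -0.28 (SE 0.058, adjusted p = 0.000645).

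The type II receptor chains moved apart from each other. Ifngr1, the chain that binds interferon gamma, measured 84.6, 90.1 and 90.6 FPKM in untreated WT cells and 52.9, 53.2 and 53.6 in untreated Pim1-/- cells. After LPS it measured 51.7, 53.5 and 54.5 FPKM in WT and 56.5, 59.9 and 53.7 in Pim1-/- cells. Untreated WT cells stood alone at 84.6 FPKM or more, and the other 9 libraries lay between 51.7 and 59.9. In untreated cells the WT mean was 1.66-fold higher (-0.72 for Pim1-/- minus WT, adjusted p = 1.10e-09), and LPS lowered it in WT to 0.602 of the untreated mean (-0.72, adjusted p = 2.61e-10). After LPS the genotypes overlapped, and their difference of 0.09 (95% confidence interval -0.0069 to 0.19) did not pass the test (adjusted p = 0.0832). In Pim1-/- cells LPS gave a difference of 0.09 (95% confidence interval -0.0071 to 0.18) that did not pass either (adjusted p = 0.0778), although the groups did not overlap. With the replicate number as a block, the difference of 0.09 with LPS in Pim1-/- cells passed (adjusted p = 0.0469). Without LPS-treated Pim1-/- replicate 3, both differences were 0.13 and passed, with adjusted p of 0.0168 and 0.0152. The difference in the LPS response was 0.81 (SE 0.064, adjusted p = 3.62e-08).

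Ifngr2, the chain that brings JAK2, measured 70.1, 69.2 and 67.0 FPKM in untreated WT cells and 47.8, 49.0 and 45.1 in untreated Pim1-/- cells. After LPS it measured 182.3, 171.3 and 175.6 FPKM in WT and 108.5, 109.4 and 107.1 in Pim1-/- cells. All 4 groups were separate, with LPS-treated WT highest and untreated Pim1-/- lowest. The WT mean was 1.45-fold higher untreated (-0.53, adjusted p = 1.38e-08) and 1.63-fold higher after LPS (-0.70, SE 0.041, adjusted p = 4.37e-10). LPS raised the mean 2.57-fold in WT (1.35, adjusted p = 2.2e-14) and 2.29-fold in Pim1-/- cells (adjusted p = 1.82e-13). The difference of the responses was -0.17 (SE 0.058, adjusted p = 0.0202), and it was -0.14 with an adjusted p of 0.0615 without LPS-treated WT replicate 1, -0.15 with 0.0511 without untreated WT replicate 3, and -0.14 with 0.054 without untreated Pim1-/- replicate 2.

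Set against all genes, these differences were common in kind. A change of more than 2-fold with p under 0.05 and an FDR under 0.1, the thresholds of the study's methods, was met after LPS between genotypes by 1 of the 5 genes (Ifnar1), where 8.66% of all genes met it, and in untreated cells by none, against 7.78%. Ifnb1, Ifnar1, Ifnar2 and Ifngr2 passed an FDR under 0.05 after LPS, as did 77.4% of all genes (35.7% higher and 41.7% lower), and Ifnar1, Ifngr1 and Ifngr2 passed it untreated, as did 74.7% (32.7% higher and 42% lower). The genotype groups did not overlap for 4 of 5 genes after LPS and 4 of 5 untreated, where 77.5% and 78.4% of all genes did not. With LPS, the 2-fold thresholds were met by Ifnar1 and Ifngr2 in WT, against 34.8% of all genes, and by Ifngr2 in Pim1-/- cells, against 25%. Of the 4 receptor genes, all passed an FDR under 0.05 in WT and all but Ifngr1 in Pim1-/- cells, against 89.3% of all genes in WT (44.9% higher and 44.5% lower) and 84.6% in Pim1-/- cells (42% higher and 42.6% lower). The LPS groups did not overlap for any receptor gene in either genotype, as for 90.4% and 83.8% of all genes. Ifnb1 was tested only because of its values after LPS, so it had to differ from untreated cells and is not counted here. The response to LPS differed between genotypes at an FDR under 0.05 for all 5 genes, against 62.9% of all genes (29.6% higher and 33.3% lower), and by more than 2-fold for none, against 6.67%. The genotype and LPS comparisons share libraries, so their values are given side by side and are not independent.

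**Figure D2:**
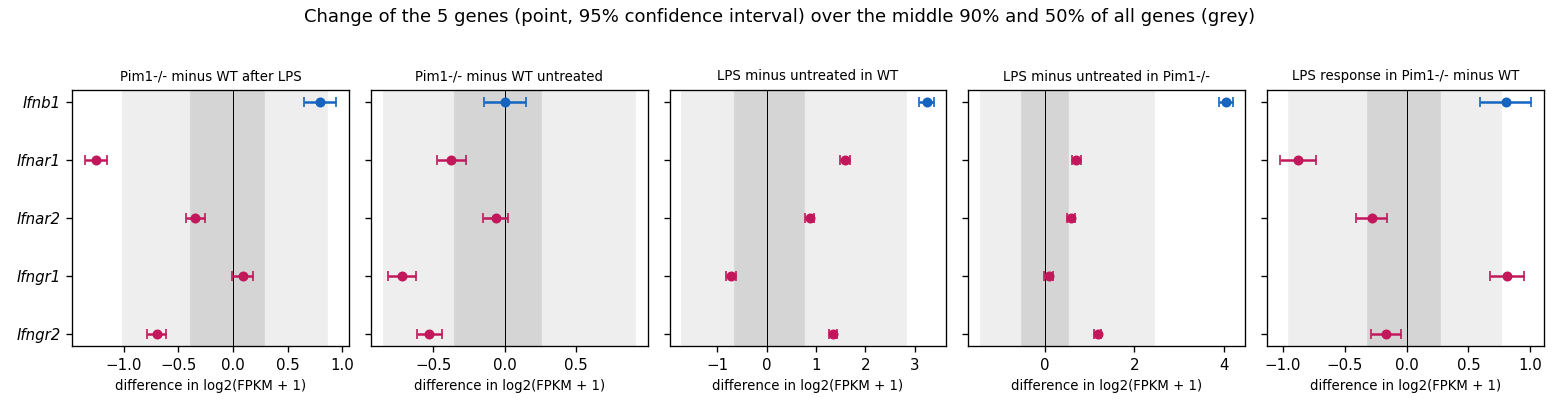
Difference in log2(FPKM + 1) of the 5 genes in 5 comparisons (points, with 95% confidence intervals), over the middle 90% (light grey) and 50% (dark grey) of all 10581 genes tested. After LPS, Ifnar1 at -1.26 lies below the middle 90% of genes (-1.01 to 0.858), and Ifnb1 at 0.80 lies within it.

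The order of the levels per length changed with treatment and genotype. In untreated WT cells Ifngr1 (mean 88.43 ± 3.34 FPKM, SD, n = 3) was above Ifnar2 (68.92 ± 0.948) and Ifngr2 (68.75 ± 1.60), which overlapped, and Ifnar1 (15.35 ± 0.553) was lowest of the receptors. In untreated Pim1-/- cells Ifnar2 (65.86 ± 0.835) was first, followed by Ifngr1 (53.22 ± 0.337), Ifngr2 (47.3 ± 1.97) and Ifnar1 (11.61 ± 0.176), with no overlap between neighbours. After LPS the order was the same in both genotypes and without overlap. Ifngr2 (176.4 ± 5.53 in WT, 108.4 ± 1.17 in Pim1-/-) came first, then Ifnar2 (126.9 ± 2.28 and 99.72 ± 5.34), Ifngr1 (53.23 ± 1.41 and 56.72 ± 3.09), Ifnar1 (47.99 ± 0.993 and 19.54 ± 1.25) and Ifnb1. In LPS-treated Pim1-/- cells the Ifnb1 level was on average 0.799 of the Ifnar1 level, against 0.177 in LPS-treated WT cells.

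Ratios within a library do not depend on how that library was scaled. The Ifnb1 to Ifnar1 ratio was 0.199, 0.159 and 0.174 in LPS-treated WT cells and 0.784, 0.918 and 0.696 in LPS-treated Pim1-/- cells. The groups were separate, 4.5-fold apart, with an exact two-sided permutation p of 0.1, the smallest that 3 against 3 libraries allow. The Ifnb1 to Ifnar2 ratio had means of 0.0669 ± 0.00591 in WT and 0.156 ± 0.0051 in Pim1-/- cells (SD, n = 3). Set against Actb, the reference gene of the study's RT-qPCR, Ifnb1 was 0.105% ± 0.00792 of the Actb level in WT and 0.527% ± 0.0827 in Pim1-/- cells, 4.97-fold apart with the same exact permutation p of 0.1. Actb itself differed, with means of 8063 and 2972 FPKM in these groups. The paper reports the opposite direction for LPS-treated BMDMs, with less IFN-beta RNA by Actb-normalized RT-qPCR and less secreted protein by ELISA in Pim1-/- cells. The ELISA was done later than 4 h, and why the RNA-seq values differ was not tested.

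The partner chains were not kept in 1 proportion. The Ifnar1 to Ifnar2 ratio was 0.223 ± 0.0105 in untreated WT, 0.176 ± 0.00487 in untreated Pim1-/-, 0.378 ± 0.0109 in LPS-treated WT and 0.197 ± 0.0231 in LPS-treated Pim1-/- cells (SD, n = 3 each). Over both treatments it was lower in Pim1-/- cells by 1.56-fold (log2 difference -0.643, exact permutation p = 0.005, the smallest that 400 arrangements allow, Benjamini-Hochberg 0.015 over 6 ratio tests). Over both genotypes it was higher with LPS by 1.37-fold (exact permutation p = 0.01, adjusted 0.02), while in Pim1-/- cells alone the groups overlapped, with a log2 difference of 0.152 (exact permutation p = 0.2).

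The Ifngr1 to Ifngr2 ratio was 1.29 ± 0.0739 in untreated WT, 1.13 ± 0.0534 in untreated Pim1-/-, 0.302 ± 0.0159 in LPS-treated WT and 0.523 ± 0.0229 in LPS-treated Pim1-/- cells (SD, n = 3 each). LPS lowered it 3.03-fold over both genotypes (log2 difference -1.6, exact permutation p = 0.005, adjusted 0.015). The genotype difference went opposite ways, -0.192 untreated and 0.793 after LPS, and over both treatments it was 0.301 and did not pass (exact permutation p = 0.1, adjusted 0.1). The sum of the type I chains over the sum of the type II chains was 0.536 ± 0.00475 in untreated WT cells and 0.771 ± 0.0188, 0.762 ± 0.0136 and 0.722 ± 0.00669 in untreated Pim1-/-, LPS-treated WT and LPS-treated Pim1-/- cells. Untreated WT cells again stood apart from the other 9 libraries. Neither genotype nor LPS passed over both strata for this ratio (log2 differences 0.223 and 0.207, exact permutation p = 0.1 for each, adjusted 0.1).

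**Figure D3:**
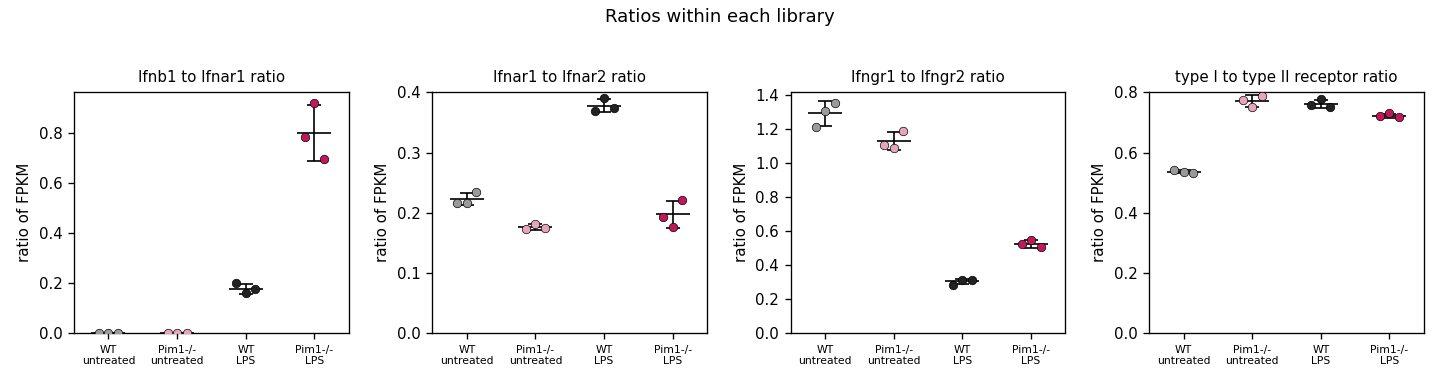
Ratio of FPKM within each library (points), with mean and SD of each group of 3, for Ifnb1 to Ifnar1, Ifnar1 to Ifnar2, Ifngr1 to Ifngr2, and the sum of type I over the sum of type II receptor chains. The Ifnb1 to Ifnar1 ratio is 0.159 to 0.199 in LPS-treated WT and 0.696 to 0.918 in LPS-treated Pim1-/- cells.

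Levels compared between libraries depend on their scaling, and the sum of FPKM differed between the groups, from 452511 to 489710 in untreated and from 713307 to 849323 in LPS-treated libraries. After LPS, the genotype difference of Ifnb1 was higher in Pim1-/- cells under each of 4 other scalings, from 0.78 with quantile normalization to 2.03 with scaling to Actb. Ifnar1 was lower in Pim1-/- cells under all but the Actb scaling, where its difference was 0.14, Ifnar2 became 1.08 and Ifngr2 0.73. The Actb scaling moved the median of all genes by 1.052, and relative to that median the differences were 0.98 for Ifnb1, -0.91 for Ifnar1, 0.03 for Ifnar2, 0.44 for Ifngr1 and -0.32 for Ifngr2. Ifngr1, which did not pass with the values as deposited, had 0.30 with quantile normalization, 0.29 with equal FPKM sums and 1.49 with Actb, and passed in all 3. For LPS in Pim1-/- cells, Ifngr1 turned from 0.09 to -0.58, -0.56 and -1.42 under these 3 scalings. The higher Ifnar1, Ifnar2 and Ifngr2 with LPS turned with the Actb scaling, with values of -0.93, -1.71 and -1.24 for WT, where that scaling moved the median of all genes by -2.156. For Pim1-/- cells they became -0.75, -0.92 and -0.33, with a median of all genes of -1.404, and Ifnar2 also turned with quantile normalization, to -0.13 and -0.14. With equal FPKM sums, Ifnar2 with LPS was 0.07 in WT (adjusted p = 0.105) and -0.07 in Pim1-/- cells, and Ifnar1 in Pim1-/- cells was 0.08 (adjusted p = 0.194), none of which passed. The lower Ifngr1 and Ifngr2 of untreated Pim1-/- cells and the lower Ifngr1 of WT cells after LPS kept their direction and passed under all 4. The lower Ifnar1 of untreated Pim1-/- cells did not, with a difference of -0.04 under the Actb scaling that did not pass. Untreated Ifnar2 became 0.29 with that scaling and passed. The targeted gene Pim1 was lower in Pim1-/- cells after LPS under 3 of the 4, and with the Actb scaling its difference was -0.118 and did not pass (adjusted p = 0.0787).

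**Figure D4:**
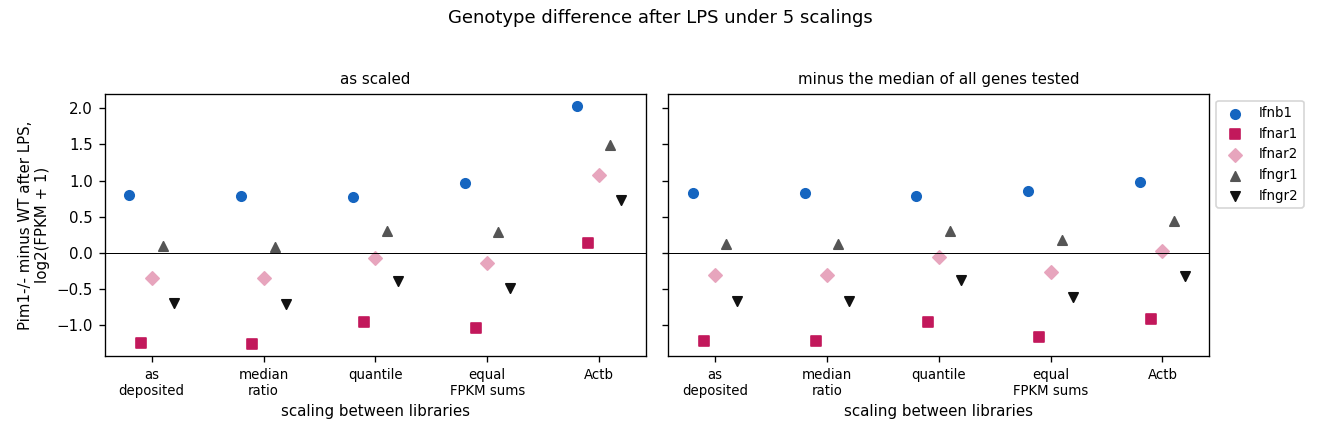
Genotype difference after LPS (Pim1-/- minus WT, log2(FPKM + 1)) of the 5 genes with values as deposited and under 4 other scalings between libraries, as scaled (left) and minus the median of all genes tested (right). Ifnb1 is highest and Ifnar1 lowest in every column, but with scaling to Actb all 5 are above 0 as scaled, Ifnar1 at 0.14.

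The receptor genes of chromosome 16 lie beside Il10rb, a chain of the receptors for interleukin 10 and interferon lambda, and Tmem50b, which encodes a transmembrane protein. Il10rb, between Ifnar2 and Ifnar1, had means of 188.2 FPKM in untreated WT, 138.5 in untreated Pim1-/-, 166.3 in LPS-treated WT and 125.0 in LPS-treated Pim1-/- cells. It was lower in Pim1-/- cells by about the same amount untreated (-0.44, adjusted p = 2.7e-08) and after LPS (-0.41, adjusted p = 4.82e-08). LPS lowered Il10rb slightly in WT (-0.18, adjusted p = 0.000245) and in Pim1-/- cells (-0.15, adjusted p = 0.00134), whereas Ifnar2 and Ifnar1 on its sides were raised with the values as deposited. Tmem50b, next to Ifngr2 on the opposite strand, had 25.73, 17.11, 95.28 and 38.17 FPKM in the same order of groups. Its genotype difference after LPS was -1.30 (adjusted p = 3.5e-13) and its response difference -0.74 (adjusted p = 3.4e-08), near those of Ifnar1, -1.26 and -0.88. Dnajc28, the next gene after Tmem50b, went the other way, with means of 3.745, 2.515, 0.07523 and 0.2768 FPKM in the same order, a genotype difference after LPS of 0.25 (adjusted p = 0.0012) and a response difference of 0.68 (adjusted p = 4e-06). Olig1, the neighbour before Ifnar2, was at 0 in every library.

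**Figure D5:**
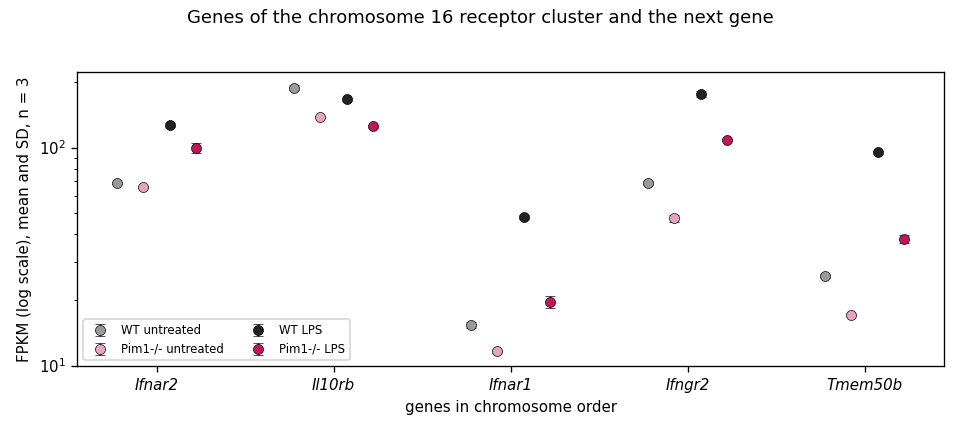
FPKM (log axis) of the genes of the chromosome 16 receptor cluster in chromosome order, as mean and SD of 3 libraries per group. Ifnar2, Ifnar1, Ifngr2 and Tmem50b are highest in LPS-treated WT cells, whereas Il10rb is highest in untreated WT cells (188.2) and lowest in LPS-treated Pim1-/- cells (125.0).

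Ifnb1 was the one interferon gene measured above 1 FPKM. All 20 other interferon genes looked for were in the files, and none reached 1 FPKM in any library. Ifna5, Ifne and Ifnz were the only ones above 0, with a highest value of 0.225 FPKM for Ifna5, and Ifng was at 0 throughout. Of 8 other class II cytokine receptor genes, the family of the interferon receptors, 4 were tested. After LPS, Il10ra, Il10rb and Il20rb were lower in Pim1-/- cells, against 41.7% of all genes. F3, which encodes tissue factor, was higher (0.26, adjusted p = 0.00942), against 35.7%. With the Actb scaling all 4 were higher, but 3 were below the median of all genes, with a median of -0.22 relative to it. Il10ra, the ligand-binding chain for interleukin 10, had 60.77 FPKM in untreated WT, 19.33 in untreated Pim1-/-, 143.6 in LPS-treated WT and 63.02 in LPS-treated Pim1-/- cells, a genotype difference after LPS of -1.177 (adjusted p = 2.75e-11).

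Genes that act before Ifnb1 were mostly lower in LPS-treated Pim1-/- cells, in contrast to Ifnb1. Of 11 tested genes of its induction by TLR4, 8 were lower, 1 was higher and 2 did not pass at an FDR under 0.05, with a median of -0.379 against -0.0333 over all genes, of which 41.7% were lower and 35.7% higher. With quantile normalization 6 were lower and 2 higher, and with equal FPKM sums 6 and 3. With the Actb scaling all 11 were higher, and their median was -0.0633 relative to that of all genes. With the values as deposited, the gene that was higher, named after its value was seen, was Tlr4, the LPS receptor (0.81, adjusted p = 1.98e-07). Those that did not pass were Irf3 (0.05) and Traf3 (0.07), which encode the factor and an adaptor of the TRIF branch. Cd14, which hands LPS to TLR4, had a mean of 1861 FPKM in WT and 1699 in Pim1-/- cells (-0.13, adjusted p = 0.0168). Ikbke, a kinase for IRF3, had 235.6 and 122.0 FPKM (-0.94, adjusted p = 1.31e-10), and Irf7, the factor of the later type I response, 817.6 and 395.6 (-1.046, adjusted p = 1.31e-08). Of 9 factors and coactivators of the Ifnb1 enhancer, 7 were lower and 2, Hmga1 and Rel, did not pass, against 41.7% of all genes lower, with a median of -0.413 against -0.0333. With the Actb scaling 8 were higher, and their median was -0.121 relative to that of all genes. Untreated, 7 of the 11 induction genes were already lower in Pim1-/- cells and 2 higher, against 42% and 32.7% of all genes. All 9 enhancer factors were lower untreated. With the Actb scaling, 4 of the 11 were lower and 4 higher untreated, and 5 and 3 of the 9. The LPS response was larger in Pim1-/- cells for 6 of the 11 and smaller for 3, and for 2 and 1 of the 9. Over all genes it was larger for 29.6% and smaller for 33.3%. Jun, a subunit of AP-1, had 35.53 FPKM in WT and 13.56 in Pim1-/- cells after LPS (-1.33, adjusted p = 3.41e-12), Nfkb1 297.9 and 179.9, Rela 128.2 and 90.82, and Irf1 872.2 and 676.3.

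Genes that act after the receptors were lower in LPS-treated Pim1-/- cells too, with the values as deposited. Of 7 genes of receptor-proximal signalling, 6 were lower and Irf9 did not pass (-0.01), against 41.7% of all genes lower, with a median of -0.841 against -0.0333. With the Actb scaling 5 were higher and 1 lower, and 6 of 7 were below the median of all genes, with a median of -0.457 relative to it. Untreated, 6 of 7 were already lower in Pim1-/- cells, against 42% of all genes, with a median of -0.611. With the Actb scaling 5 were lower and 1 higher untreated. Jak1, shared by both receptors, had means of 38.81 FPKM in untreated WT, 27.94 in untreated Pim1-/-, 134.0 in LPS-treated WT and 53.93 in LPS-treated Pim1-/- cells, a genotype difference after LPS of -1.30 and a response difference of -0.84, close to those of Ifnar1. Jak2, the partner of Ifngr2, had 316.0 and 176.0 FPKM after LPS (-0.84), Stat2 183.1 and 88.4 (-1.04) and Stat3 129.0 and 40.74 (-1.64). All 7 were higher with LPS than untreated in both genotypes, as were 44.9% of all genes in WT and 42% in Pim1-/- cells.

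Of 8 genes that restrain the receptors, 6 were lower after LPS in Pim1-/- cells and 2, Ptprc and Usp18, did not pass, against 41.7% of all genes lower, with a median of -0.712 against -0.0333. With the Actb scaling 5 were higher and 1 lower, and their median was -0.361 relative to that of all genes. Untreated, 5 of 8 were already lower in Pim1-/- cells and 3 did not pass, against 42% of all genes lower, with a median of -0.302. With the Actb scaling 3 were lower and 2 higher untreated. The values that follow are after LPS. Ptpn1, a phosphatase of JAK2 and TYK2, had 78.82 FPKM in WT and 16.57 in Pim1-/- cells (-2.18, adjusted p = 1.53e-14). Socs1 had 133.8 and 47.06 FPKM (-1.49, adjusted p = 1.5e-11) and Socs3 1119 and 453.6 (-1.30, adjusted p = 3.35e-09). Usp18, which blocks signalling at Ifnar2 and is itself induced by type I interferon, had 730.3 and 672.5 FPKM (-0.12, adjusted p = 0.121).

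The 13 type I interferon targets were lower in Pim1-/- cells already without LPS, where no Ifnb1 was measured. Untreated, 13 of 13 were lower in Pim1-/- cells, against 42% of all genes, with a median of -1.41, and this held under all 4 other scalings. Their summed level was 64.3 to 70.9 FPKM in untreated WT and 18.2 to 21.5 in untreated Pim1-/- libraries. After LPS it was 17800 to 18200 in WT and 12000 to 12800 in Pim1-/- libraries. There 12 of 13 were lower (median -0.598), against 41.7% of all genes, and Usp18 did not pass. With quantile normalization 8 were lower and 5 did not pass, and with equal FPKM sums 10 and 3. With the Actb scaling 11 were higher and 1 lower, and 9 of 13 were below the median of all genes, with a median of -0.207 relative to it. Isg15 had 10.72, 3.45, 2933 and 1804 FPKM in untreated WT, untreated Pim1-/-, LPS-treated WT and LPS-treated Pim1-/- cells, and Mx1 1.407, 0.04566, 896.5 and 276.0. Ifit3 differed by -2.54 untreated (adjusted p = 8.93e-14) but by -0.20 after LPS (adjusted p = 0.0214), a response difference of 2.34 (adjusted p = 6.41e-11). All 13 rose with LPS in both genotypes, as did 44.9% of all genes in WT and 42% in Pim1-/- cells. The medians were 7.95 in WT and 8.05 in Pim1-/- cells. On the log2(FPKM + 1) scale the response was larger in Pim1-/- cells for 8 and smaller for 3 (Mx1, Mx2 and Oas1a). It did not pass for 2 (Ifi44 and Oasl1). Over all genes it was larger for 29.6% and smaller for 33.3%. That scale understates rises from under 1 FPKM, and the Mx1 means above rose by more in proportion in Pim1-/- cells. With quantile normalization 8 were larger and 2 smaller, and with equal FPKM sums 9 and 2. With the Actb scaling 13 were larger and 0 smaller, with a median of 1.16 relative to that of all genes.

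Of 11 genes with gamma-activated sites, which interferon gamma raises, 9 were lower after LPS in Pim1-/- cells, Ciita, the MHC class II coactivator, was higher (0.47, adjusted p = 4.51e-06) and Gbp3 did not pass, against 41.7% of all genes lower and 35.7% higher. The median was -0.892 against -0.0333. With the Actb scaling 7 were higher and 3 lower, and 8 of 11 were below the median of all genes, with a median of -0.509 relative to it. Untreated, 8 of 11 were already lower in Pim1-/- cells and 3 did not pass, against 42% of all genes lower. The untreated median was -1.24, and Ciita was lower there (-1.22, adjusted p = 8.09e-11). With the Actb scaling 8 were lower untreated too. Cxcl9, a chemokine, had 193.6 FPKM in WT and 44.79 in Pim1-/- cells after LPS (-2.09, adjusted p = 6.28e-15), and Fcgr1, an antibody receptor, 305.7 and 68.53 (-2.14, adjusted p = 6.18e-15). Several genes stand in more than 1 of these lists, among them Irf7, Usp18, Irf1 and Socs1. Fcgr1 and Cd14 stand in these lists and also among the macrophage markers. The lower macrophage markers given above moved with all of these lists in Pim1-/- cells, and their part was not tested.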

How the data were processed

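RNA-seq was done on 12 BMDM libraries in 4 groups of 3, grouped by their labels. The authors prepared TruSeq stranded mRNA libraries, sequenced them on a NovaSeq instrument, mapped the reads with TopHat (2.0.13) and computed values with Cuffdiff (2.2.1). The submitters' processing notes also name bcl2fastq (2.20.0.422), cutadapt (1.18) and mm10, while the methods name rat rn5. Neither the annotation nor Cuffdiff's normalization between libraries is stated in the paper or labels used here. The deposited values carry no unit and were read as FPKM from the use of Cuffdiff, their decimals and their sums.

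Values were used as deposited. Of 23997 genes, 7587 were at 0 in every library and 10581 had at least 1 FPKM in at least 3 libraries, including the 5 genes described. These were fitted on log2(FPKM + 1) with limma (version 3.58.1 under R 4.3.3), 1 mean for each of the 4 groups and a mean-variance trend, with Benjamini-Hochberg adjustment over all genes tested. Ratios were compared by exact two-sided permutation within strata. Depth is unknown except by the estimate from low values.

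Groups share replicate numbers. Deviations of same-numbered libraries from the group means, over 3646 genes, correlated at 0.326, 0.370 and 0.456 between genotypes untreated and at 0.426, 0.541 and 0.683 between untreated and LPS-treated Pim1-/- libraries. The values were lower after LPS between genotypes (lowest 0.020) and with LPS in WT (lowest -0.103). Differently numbered libraries were not compared, so these values do not establish a pairing. The fit had no block.

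Named genes were the 5 described, Pim1, Actb, and of each pathway list the 3 with the highest group mean and the one with the largest change in each comparison, plus for each of the 5 the 5 genes with the highest Pearson r. The values of 1 listed gene are not reported here. The genes and lists were chosen with earlier results of these data known. Positions came from GENCODE M21 and promoters from RefSeq. The plots used matplotlib 3.10.9, and other steps Python 3.11.15 with numpy 2.4.6 and pandas 2.3.3. Alternatives covered the pseudocount, the filter, 4 scalings, the groups in the fit, the block, the trend, the call rule and leaving out each library.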

Additional observations from a re-analysis of the deposited data

Results flagged for a closer look

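Each of the 5 genes had an LPS response that was not the same in both genotypes, by the interaction term of the limma fit (Benjamini-Hochberg FDR under 0.05), as it did for 62.9% of all genes tested. Ifnb1 was 0.80 higher in Pim1-/- cells on the log2(FPKM + 1) scale (adjusted p = 4.08e-06), a value equal to its genotype difference after LPS because it read 0 without LPS. Ifngr1 was 0.81 higher (adjusted p = 3.62e-08), where LPS lowered it in WT cells and the test in Pim1-/- cells did not pass. Ifnar1 differed by -0.88 (adjusted p = 2.96e-08), Ifnar2 by -0.28 (adjusted p = 0.000645) and Ifngr2 by -0.17 (adjusted p = 0.0202). With scaling to Actb the signs of Ifnar1, Ifnar2 and Ifngr2 turned, and Ifngr2 also turned with quantile normalization. The difference of Ifnar2 was -0.01 with quantile normalization (adjusted p = 0.841) and that of Ifngr2 was -0.02 with equal FPKM sums (adjusted p = 0.811), and neither passed.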

How the results depend on the processing

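Of 737 values under 23 other settings, 691 kept their direction and side of the threshold or, for counts and ratios, stayed close to the reported value. Quantile normalization turned Ifnar2 with LPS to -0.13 in WT and -0.14 in Pim1-/- cells and the response difference of Ifngr2 to 0.18. It left 0 genes past the 2-fold thresholds after LPS between genotypes, 1 with LPS in Pim1-/- cells and 1 for the response difference. Equal FPKM sums turned Ifnar2 with LPS in Pim1-/- cells to -0.066 and left 1 gene there. Scaling to Actb turned Ifnar1, Ifnar2 and Ifngr2 in 4 comparisons: to 0.14, 1.08 and 0.73 after LPS between genotypes, to -0.93, -1.71 and -1.24 with LPS in WT, to -0.75, -0.92 and -0.33 with LPS in Pim1-/- cells, and to 0.18, 0.79 and 0.91 for the response difference. It gave 3 genes after LPS and 2 for the response difference. For LPS in WT these scalings moved the median of all genes by -0.174, -0.67 and -2.156. Quantile normalization did not move all genes alike, and Ifnar2 with LPS in WT went from 0.87 to -0.13 with it. Equal FPKM sums and Actb divide each library by a single factor. An FDR under 0.05 with no fold threshold gave 4 genes after LPS between genotypes, 3 untreated, 5 with LPS in WT, 4 with LPS in Pim1-/- cells and 5 for the response difference, where the 2-fold thresholds gave 1, 0, 3, 2 and 0. The counts with LPS include Ifnb1, which had to differ, and without it are 1 lower each. Over all genes, those thresholds called 916 after LPS between genotypes and 706 for the response difference, against 1442 and 1075 with a pseudocount of 0.1 and 5770 and 3606 with scaling to Actb, which also gave 1305 untreated against 823, 9250 with LPS in WT against 3686 and 8063 in Pim1-/- cells against 2649.

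Leaving out each of the 12 libraries kept those 2-fold counts and gave 0.74 to 0.88 for Ifnb1 after LPS and 2.07 to 2.27 for the log2 Ifnb1 to Ifnar1 ratio. With the replicate number as a block, Ifngr1 with LPS in Pim1-/- cells passed (0.09, adjusted p = 0.0469), and no other call changed. Depth limits Ifnb1 most, at 94 to 268 estimated fragments.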

Other observations

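For each of the 5 genes, the 5 tested genes with the most similar pattern were taken by Pearson's r of log2(FPKM + 1) over the 12 libraries. These are descriptions over 4 groups of 3, with no p, and r is high wherever the group means line up. Ifnb1 was most like Enpp4 (r = 0.9992), Inhba and Ccl17 (0.9988 each), Nr4a3 (0.9987) and Plagl1 (0.9983). Ccl17, a chemokine that binds CCR4, was at 0 in untreated WT cells and had means of 74.91 FPKM in LPS-treated WT and 244.0 in LPS-treated Pim1-/- cells. Inhba, the beta A subunit of activin, had 2.64 and 3.485 FPKM in those groups.

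Ifnar1 was most like Arhgap26 (0.9985), Uso1 (0.9978), Kif3b (0.9976), Trib1 (0.9972) and Ier2 (0.997), an immediate early gene with means of 17.36 FPKM in untreated WT, 12.48 in untreated Pim1-/-, 79.67 in LPS-treated WT and 24.52 in LPS-treated Pim1-/- cells. Ifnar2 was most like Rab8a (0.998), Akirin1 (0.9974), Tcp10b and Plekhf2 (0.9971 each) and AW011738 (0.997). Ifngr2 was most like Fcgr2b (0.9986), the inhibitory antibody receptor, then Serp1 (0.9984), Cmtm6 (0.9981), Ankle2 (0.9978) and Stard5 (0.9974). Ifngr1 was less closely matched, with Blnk (0.9815), an adaptor of antigen receptor signalling, at 61.44 FPKM in untreated WT and 33.06, 31.92 and 34.57 in untreated Pim1-/-, LPS-treated WT and LPS-treated Pim1-/- cells, then Atxn1 (0.9767), Samd4 and Prcp (0.9739 each) and Tanc2 (0.9738). Among the 5 genes themselves, r was 0.953 between Ifnar1 and Ifngr2, 0.973 between Ifnar2 and Ifngr2 and 0.927 between Ifnar1 and Ifnar2, and -0.496 to -0.280 between Ifngr1 and the others.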
